A study of Mus musculus with 48 samples.

Results

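The 10 genes followed here in mouse liver serve the lipid droplet, the storage organelle for neutral fat: Cidec, Cidea, Cideb, Plin2, Plin4, Plin5, Pparg, G0s2, Fitm1 and Pnpla2. Each gene was taken as the probe set that carries its symbol alone and has the highest mean over all arrays. Of the 10 listed genes, 9 had such a probe set, of 22180 genes so measured, and all 9 passed the filter on low levels that left 16926 genes for testing. The probe set of Cideb also carries a second gene symbol, so Cideb was not analysed here.

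Liver total RNA from 48 mice was hybridized to Affymetrix arrays, 1 array per mouse. The mice, males and females, ate freely from 3 weeks of age and were killed at 15 months. Their diets, written below as protein/carbohydrate/fat in percent of energy, filled 20 combinations of composition with low, medium or high energy, of 1 to 4 mice each. Protein gave 5% of energy for 10 mice, 14% for 9, 23% for 9, 33% for 9, 42% for 5 and 60% for 6, and 5 mice ate low, 14 medium and 29 high energy diets. At 5% protein the diets were high energy 5/75/20 (4 mice), 5/48/48 (4) and 5/20/75 (2). At 14% they were 14/57/29 (2 medium, 2 high) and 14/29/57 (1 medium, 4 high). At 23% they were 23/65/12 (2 high) and 23/38/38 (1 low, 3 medium, 3 high). At 33% they were 33/47/20 (2 medium, 2 high) and 33/20/47 (3 medium, 2 high). The rest were 42/29/29 (1 low, 3 medium, 1 high) and 60/20/20 (3 low, 3 high). Strain and any genetic change are not given in the labels, nor is the sex of each mouse. One mouse was drawn from each cage, per the labels, so the tests run over separate animals.

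Fat is stored in hepatocytes as triglyceride in droplets bounded by a single layer of phospholipid and a coat of proteins. Perilipins (Plin2, Plin4, Plin5) coat the droplet, the CIDE proteins (Cidec, Cidea, Cideb) let droplets fuse and grow or pass lipid to lipoproteins, and FIT proteins such as Fitm1 help neutral lipid leave the endoplasmic reticulum into droplets. Pnpla2 encodes adipose triglyceride lipase, which starts the breakdown of the stored triglyceride, G0s2 encodes its inhibitor, and Pparg encodes the nuclear receptor PPAR gamma, which drives fat storage genes in fat cells and in fatty liver.

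To show the regulatory sequence beside the levels, the start sites of the genes were read from RefSeq on GRCm38.p6, as windows of 300 bases from 250 before to 50 after a start. Of the 10 listed genes, 9 had a window, 13 windows in all, and none was read for Cidea. The windows of the genes on which the results below turn follow, 5′ to 3′ on the gene's strand, with matches in capitals to the nuclear receptor core motif AGGTCA, to its direct repeat with 1 base between, to the E-box CACGTG and to a C/EBP-like motif TTGCNNAA, each searched on both strands.
Cidec chr6:113434715-113435014 minus strand: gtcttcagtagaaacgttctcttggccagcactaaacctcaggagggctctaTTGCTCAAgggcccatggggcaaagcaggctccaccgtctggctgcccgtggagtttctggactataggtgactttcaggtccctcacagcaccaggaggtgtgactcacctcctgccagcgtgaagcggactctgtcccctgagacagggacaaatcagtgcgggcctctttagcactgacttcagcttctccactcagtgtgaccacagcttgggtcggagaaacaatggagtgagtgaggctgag
Cidec chr6:113435711-113436010 minus strand: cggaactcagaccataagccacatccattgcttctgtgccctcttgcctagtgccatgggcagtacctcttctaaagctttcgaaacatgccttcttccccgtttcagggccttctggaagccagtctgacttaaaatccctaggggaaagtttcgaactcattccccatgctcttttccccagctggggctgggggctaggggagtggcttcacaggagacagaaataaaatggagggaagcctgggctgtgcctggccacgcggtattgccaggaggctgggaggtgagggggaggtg
Pparg chr6:115360894-115361193 plus strand: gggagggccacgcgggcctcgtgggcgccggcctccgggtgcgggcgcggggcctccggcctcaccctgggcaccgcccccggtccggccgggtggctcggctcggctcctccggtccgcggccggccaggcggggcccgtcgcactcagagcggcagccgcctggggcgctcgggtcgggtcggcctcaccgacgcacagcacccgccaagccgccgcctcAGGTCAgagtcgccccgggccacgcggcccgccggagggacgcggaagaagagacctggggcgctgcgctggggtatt
Pparg chr6:115362099-115362398 plus strand: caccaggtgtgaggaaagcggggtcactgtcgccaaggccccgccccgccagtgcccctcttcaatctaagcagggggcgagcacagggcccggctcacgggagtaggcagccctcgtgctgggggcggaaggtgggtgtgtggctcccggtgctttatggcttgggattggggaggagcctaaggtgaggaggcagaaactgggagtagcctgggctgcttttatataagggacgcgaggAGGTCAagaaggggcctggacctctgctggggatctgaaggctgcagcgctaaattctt
Pparg chr6:115421816-115422115 plus strand: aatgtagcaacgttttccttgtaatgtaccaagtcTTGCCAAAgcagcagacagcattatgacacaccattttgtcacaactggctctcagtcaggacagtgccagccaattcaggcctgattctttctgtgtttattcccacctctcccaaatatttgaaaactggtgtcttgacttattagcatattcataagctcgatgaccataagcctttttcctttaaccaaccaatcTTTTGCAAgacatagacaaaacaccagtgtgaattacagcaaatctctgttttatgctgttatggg
G0s2 chr1:193273139-193273438 minus strand: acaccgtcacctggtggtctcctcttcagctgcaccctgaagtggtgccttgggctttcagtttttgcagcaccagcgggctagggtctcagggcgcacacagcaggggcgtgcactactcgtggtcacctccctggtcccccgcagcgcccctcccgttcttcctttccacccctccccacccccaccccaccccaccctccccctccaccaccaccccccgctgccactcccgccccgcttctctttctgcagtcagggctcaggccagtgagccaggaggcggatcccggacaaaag
Fitm1 chr14:55575424-55575723 plus strand: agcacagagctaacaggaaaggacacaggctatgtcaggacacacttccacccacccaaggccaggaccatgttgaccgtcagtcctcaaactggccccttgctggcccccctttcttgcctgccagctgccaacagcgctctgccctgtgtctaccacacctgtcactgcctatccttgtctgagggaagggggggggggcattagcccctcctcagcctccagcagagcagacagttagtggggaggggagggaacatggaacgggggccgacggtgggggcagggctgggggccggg

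The direct repeat, the form PPAR dimers are known to bind, matched 0 of the 13 windows and 0.0396% of all 32851 RefSeq windows. The core motif, which the repeat contains, matched 5 of the 13 windows and 16.3% of all windows. Relative to the start it began at -28 in the first and -9 in the second Pparg window, and other matches lay in the windows of Plin2 and Plin5. The C/EBP-like motif matched 2 of the 13 windows against 10.8% of all windows, at -198 in the first Cidec window and at -215 and -16 in the third Pparg window. The E-box matched 1 window, that of Plin2, against 7.15% of all. The second Cidec window and those of G0s2 and Fitm1 hold none of these letters. These are letter matches in short windows and were not tested against the levels.

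Markers of hepatocytes stood high on the arrays. Of 8 hepatocyte markers, Alb, Ttr, Apoa1, Apob, Tat and Cyp2e1 averaged 11.61 to 12.90 on the log2 scale of the deposited values, which ran from -0.51 to 13.42, while Hnf4a averaged 10.10 and Ass1 3.77. Of 8 adipocyte markers 7 were measured, all with means of 1.67 or less, and the defining ones, Adipoq and Lep, averaged 0.99 and 0.83, below the filter level of 1.17. The mean over those 7 markers lay between 0.97 and 1.26 in the mice on 5% protein and between 1.16 and 1.67 in those on 60%. The 10 skeletal muscle markers had means of 2.11 or less. The spread of values within an array, its interquartile range, had a median of 3.51 at 5% protein and 3.16 at 60%. Added to the diet model below as a term, this range passed for 54.5% of all genes, among them 4 of the 9 storage genes: Pnpla2 (1.78 ± 0.28 per log2 unit, limma adjusted p = 5.8e-07), Pparg (2.05 ± 0.36, adjusted p = 6.4e-06), Plin4 (2.66 ± 0.65, adjusted p = 0.000702) and Plin2 (0.64 ± 0.21, adjusted p = 0.00929). One mouse, the single one on medium energy 14/29/57, stood apart with a mean of 10.44 over 9 macrophage markers, while high energy mice had 5.48 to 8.35. Levels are whole-liver values, in which fewer cells of a type and less RNA per cell cannot be told apart.

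The first question was how the level of each gene moved with the share of energy from protein. Cidec and Pparg fell as protein rose, and the other 7 genes did not pass the test. A slope gives the change in log2 level per 10 points of energy by which protein replaced carbohydrate and fat equally, in a limma model of all 48 mice with the fat for carbohydrate exchange and energy level. Past the threshold (Benjamini-Hochberg adjusted p of 0.05 over all genes tested) were 2 of the 9 genes, both downward, while 7.01% of all 16926 genes passed, 3.65% downward and 3.37% upward. Of the 9 slopes 8 were below 0, 4 genes passed at an unadjusted p of 0.05 (26.6% of all genes), and the median slope was -0.10, against -0.0019 for all genes. Of the 1187 genes called 570 rose, and with each array centred on its median 309 of 992 did.

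Cidec, whose protein gathers at droplet contacts and makes small droplets into large ones, stood highest at 5% protein. Its levels there ran between 4.77 and 7.92 with a median of 6.18 in 10 mice. The medians were then 4.84 at 14% (3.20 to 6.58), 4.33 at 23% (3.07 to 7.49) and 4.36 at 33% (3.59 to 6.00). At 42% the 5 mice had 3.12, 3.46, 3.80, 4.72 and 4.95, and at 60% the 6 mice lay between 3.16 and 4.55 with a median of 3.64. Every mouse on 5% protein was above every mouse on 60%, while the shares between overlapped with both. How many of all genes separate these mice in the same way was not counted. The slope was -0.41 ± 0.10 (SE, n = 48; limma adjusted p = 0.00787), and extended over the 55 points from 5% to 60% it makes 4.77-fold lower. Among the 29 high energy mice alone the slope was -0.47 (adjusted p = 0.0152). The fall did not pass the threshold without the 5% protein mice (-0.23, adjusted p = 0.747) or with the arrays' interquartile range as a further term (-0.34, adjusted p = 0.125).

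Pparg had its highest median at 5% protein and its lowest at 60%. Its medians were 5.56 at 5% protein (4.92 to 6.35), 5.11 at 14% (4.59 to 6.19), 5.28 at 23% (3.64 to 5.83) and 4.95 at 33% (3.08 to 5.69). At 42% the 5 mice had 3.42, 4.74, 4.74, 4.95 and 5.32, and at 60% the 6 mice lay between 3.50 and 5.06 with a median of 4.22. Neighbouring shares overlapped, and 1 of the 6 mice on 60% lay within the range of the 5% mice. The slope was -0.29 ± 0.061 (SE, n = 48; limma adjusted p = 0.0034), which makes 3.03-fold lower over 55 points, and in the high energy mice alone it was -0.33 (adjusted p = 0.00333). With the interquartile range as a term it was -0.17 (adjusted p = 0.126), and without the 5% protein mice it was -0.26 (adjusted p = 0.335).

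The coat proteins did not pass in the model of all 48 mice. Plin4, a perilipin best known from fat cells and muscle, had medians of 4.85, 3.67, 3.42, 3.27, 3.24 and 3.05 from 5% to 60% protein, with mice between 1.67 and 6.13. Its slope of -0.26 ± 0.099 (limma adjusted p = 0.0895) passed when the second high energy 60/20/20 mouse (-0.34, adjusted p = 0.0213) or the third medium energy 42/29/29 mouse (-0.29, adjusted p = 0.0419) was left out. It also passed with array weights (-0.36, adjusted p = 0.00863) and against the log2 of the protein share (-0.44 per doubling, adjusted p = 0.0216). In 14 other alternative settings, the arrays' interquartile range as a term among them, it did not pass. Plin2, the perilipin found on most hepatocyte droplets, had medians of 10.35 at 5% and 9.79 at 60% with a slope of -0.060 ± 0.030 (adjusted p = 0.191). Plin5, which ties droplets to mitochondria, had medians between 8.01 and 8.76 and a slope of -0.0042 ± 0.063 (adjusted p = 0.971), whose 95% interval ran from -0.13 to 0.12.

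The genes of triglyceride breakdown and droplet budding did not pass either. Pnpla2 had a median of 8.40 at 5% protein and between 7.43 and 7.93 at the higher shares, with a slope of -0.10 ± 0.049 (limma adjusted p = 0.169). The slope passed without the same high energy 60/20/20 mouse (-0.15, adjusted p = 0.0401), with array weights (-0.12, adjusted p = 0.0394) and against the log2 of the protein share (-0.22 per doubling, adjusted p = 0.0184). With the arrays' interquartile range as a further term the Pnpla2 slope changed sign and did not pass. Its inhibitor G0s2 had a median of 8.43 at 5% (7.62 to 9.59), 7.46 at 14% (5.84 to 8.10), 8.39 at 23% (7.07 to 9.07), 7.87 at 33% (5.88 to 8.98), 7.69 at 42% (7.53 to 8.10) and 8.06 at 60% (6.62 to 8.94), and a slope of 0.015 ± 0.067 (adjusted p = 0.903). Fitm1 had medians of 8.87, 8.38, 7.60, 7.59, 6.47 and 7.67 from 5% to 60%, with mice between 5.70 and 9.65 that overlapped at all shares, and a slope of -0.13 ± 0.080 (adjusted p = 0.280).

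**Figure D1:**
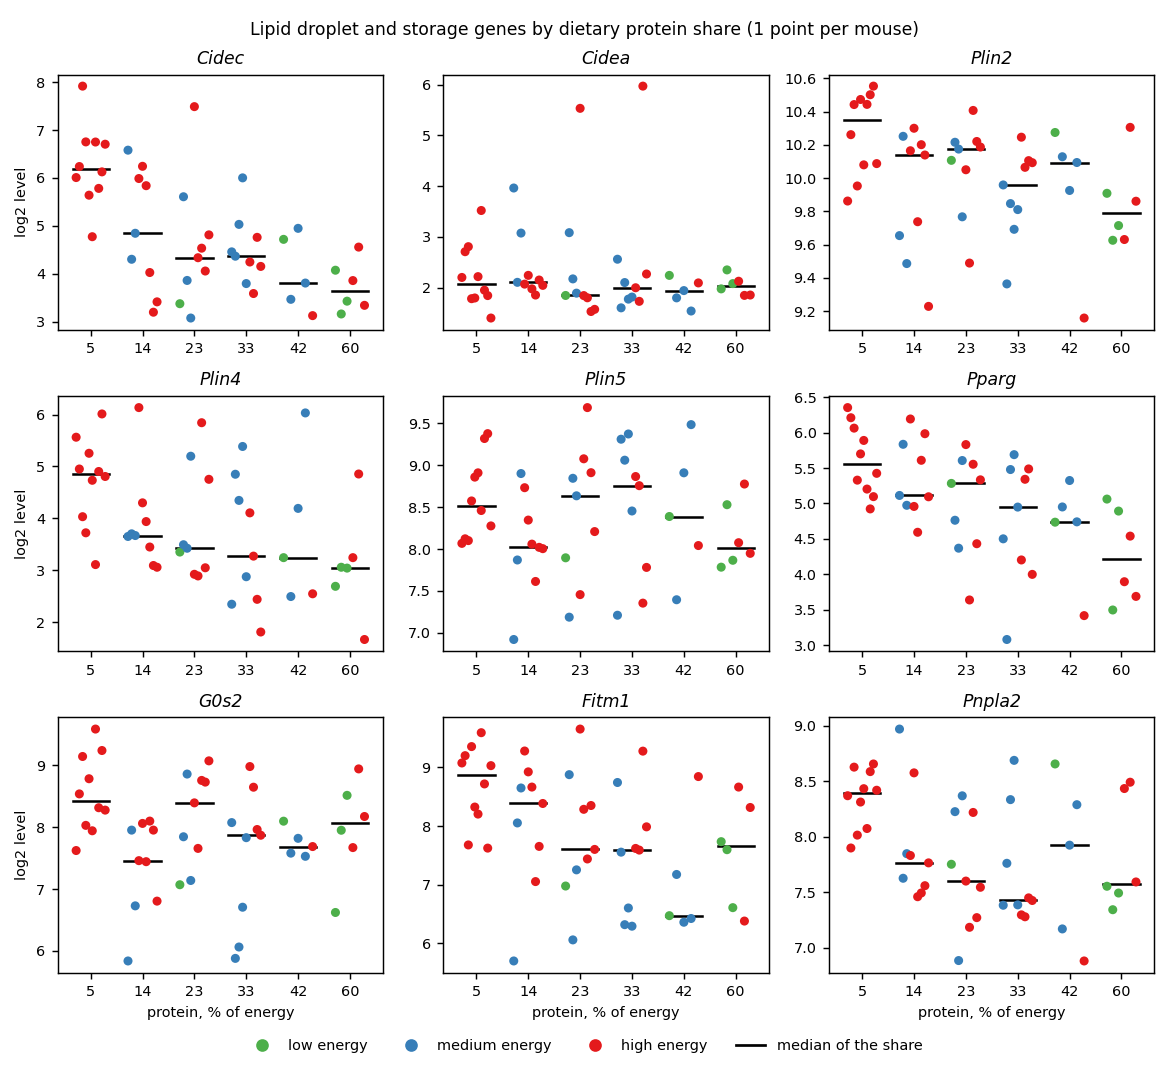
Log2 level of each of the 9 measured genes (y axes, own scale for each) against percent of dietary energy from protein (x axes), 1 point per mouse coloured by energy level, with a black line at the median of each share. Cidec has a median of 6.18 at 5% protein and 3.64 at 60%, Pparg 5.56 and 4.22, and Cidea lies near 2 in most mice with single mice at 5.53 and 5.97.

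Cidea, a CIDE protein of brown fat that appears in fatty liver, lay near 2 in most mice. Cidea thus stood near the highest of the skeletal muscle markers, whose means were 2.11 or less. Its medians were between 1.84 and 2.10 at every protein share, with a slope of -0.043 ± 0.085 (limma adjusted p = 0.772). A few mice stood far above: 5.97 in a high energy 33/47/20 mouse, 5.53 in a high energy 23/38/38 mouse, 3.96 in the medium energy 14/29/57 mouse and 3.52 in a high energy 5/75/20 mouse. The next mouse to each of the first pair in its protein share had 2.56 and 3.08. In the mouse at 5.53 Cidec was 7.49 and Fitm1 9.65, and in the mouse at 5.97 they were 4.76 and 9.28.

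Protein can replace either carbohydrate or fat, and both exchanges were fitted. Cidec fell when protein replaced fat at fixed carbohydrate (-0.45 ± 0.11 per 10 points, limma adjusted p = 0.0188), with 4.25% of all genes past the threshold and 2.32% downward, and had -0.37 ± 0.11 when it replaced carbohydrate at fixed fat (adjusted p = 0.0566), with 1.55% of genes past the threshold and 0.727% downward. Pparg fell in both exchanges, with slopes of -0.32 ± 0.072 for fat (limma adjusted p = 0.00857) and -0.26 ± 0.067 for carbohydrate (adjusted p = 0.0321). No other of the 9 genes passed in either exchange. Plin4 had -0.32 ± 0.12 for fat and -0.21 ± 0.11 for carbohydrate (adjusted p = 0.0989 and 0.271), and G0s2 had 0.089 ± 0.079 and -0.059 ± 0.074 (adjusted p = 0.508 and 0.669).

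**Figure D2:**
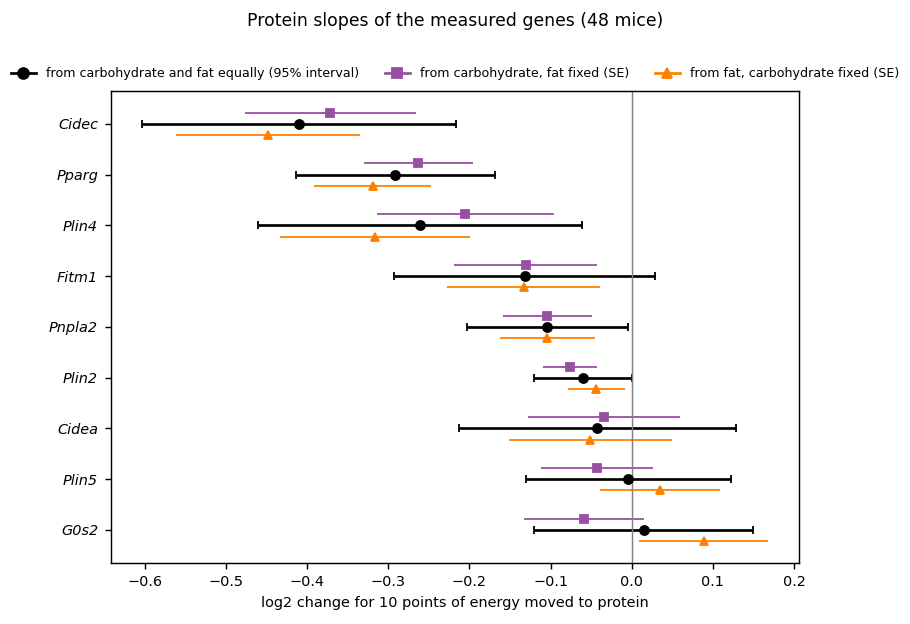
Slope of each measured gene, as the change in log2 level per 10 points of energy replaced by protein (x axis), for protein in place of carbohydrate and fat equally (circles, 95% interval), of carbohydrate at fixed fat (squares, SE) and of fat at fixed carbohydrate (triangles, SE). Cidec (-0.41), Pparg (-0.29) and Plin4 (-0.26) lie farthest below 0, and the interval of Plin4 reaches -0.061.

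The second question was whether fat in place of carbohydrate, at fixed protein and energy level, moved the storage genes. None of the 9 passed (limma, 0 of 16926 genes called, 0%; 665 genes, 3.93%, at an unadjusted p of 0.05, none of them a member). The slopes per 10 points of energy ran from -0.15 ± 0.073 for G0s2 (unadjusted p = 0.0502) to 0.11 ± 0.11 for Plin4. Cidec had 0.077 ± 0.11 (95% interval -0.13 to 0.29) and Pparg 0.056 ± 0.067 (-0.078 to 0.19).

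Matched diets with carbohydrate and fat exchanged showed larger gaps at single protein shares. At high energy and 14% protein Cidec was 4.02, 5.84, 5.99 and 6.24 in the 4 mice on fat-rich 14/29/57, against 3.20 and 3.41 in the 2 on carbohydrate-rich 14/57/29, with no overlap. At medium energy the only mouse on 14/29/57 had 6.58, against 4.30 and 4.84 on 14/57/29. At 5% protein Cidec did not follow, with 6.01 and 6.24 on fat-rich 5/20/75 against 5.78 to 6.75 on carbohydrate-rich 5/75/20, and at 33% protein the differences of the means, fat-rich minus carbohydrate-rich, were -0.54 at high energy and -0.28 at medium energy, with overlap. Pparg differed at 5% protein, with 6.21 and 6.35 on 5/20/75, against 4.92, 5.10, 5.20 and 5.42 on 5/75/20, with no overlap. Gaps without overlap were not confined to Cidec and Pparg and went both ways. At high energy and 33% protein, with 2 mice on each diet, other genes also had no overlap. There fat-rich minus carbohydrate-rich was 0.90 for G0s2, 1.24 for Plin5 and 1.56 for Plin4. It was -1.03 for Fitm1, -2.26 for Cidea and -0.15 for Pnpla2. Plin4 at high energy and 14% protein (1.38) and Plin5 at 5% protein (-0.76) had no overlap either. All these gaps were picked out after their values were seen and carry no test of their own. They were not set beside the share of all genes without overlap, and groups this small often separate. The test of whether the fat slope changes with protein gave 0 calls among all 16926 genes (limma, 0%; 652 genes, 3.85%, at an unadjusted p of 0.05), and Pparg had -0.12 ± 0.060 (unadjusted p = 0.0466, limma adjusted p = 0.967), that is a lower fat slope at higher protein.

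**Figure D3:**
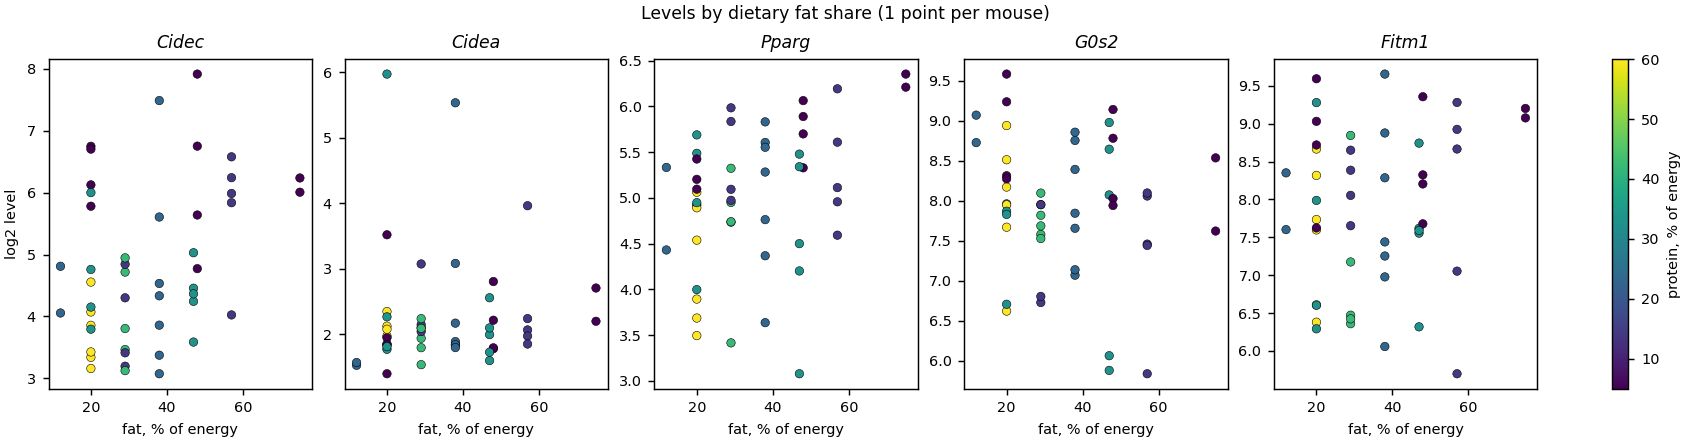
Log2 level of Cidec, Cidea, Pparg, G0s2 and Fitm1 (y axes) against percent of dietary energy from fat (x axes), 1 point per mouse, coloured by protein share. At a fat share of 20% the mice with more than 5.7 for Cidec are those on 5% protein and 1 mouse on 33%.

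The third question was energy level at equal composition. G0s2 and Fitm1 stood higher on high than on medium energy diets by the largest margins of the 9 genes, but no gene passed in the limma fit (0 of 16926, 0%; 1376 genes, 8.13%, at an unadjusted p of 0.05). G0s2 lay between 6.80 and 9.59 (median 8.17) in 29 high energy mice, against 5.84 and 8.86 (median 7.55) in 14 medium energy mice. Its difference in the model was 0.97 ± 0.23 (unadjusted p = 0.000144, adjusted p = 0.245), or 1.95-fold. Fitm1 lay between 6.38 and 9.65 (median 8.35) at high energy, against 5.70 and 8.88 (median 6.89) at medium energy, with a difference of 1.12 ± 0.28 (unadjusted p = 0.000208, adjusted p = 0.272), or 2.17-fold. The groups overlapped for both genes. These ranges pool all compositions, and the 10 mice on 5% protein, where both genes had their highest medians, all ate high energy diets. The model difference uses those mice too, through its protein slope. At low energy the 5 mice had 6.62, 7.07, 7.95, 8.10 and 8.51 for G0s2 and 6.47, 6.61, 6.98, 7.60 and 7.73 for Fitm1.

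Of the compositions, 6 were fed at both high and medium energy. The mean of G0s2 was higher at high energy in 6 of 6, by 0.038 to 2.14, as for 2.97% of all genes tested. The widest gap was at 33/20/47, with 8.65 and 8.98 in 2 high energy mice against 5.88, 6.06 and 8.07 in 3 medium energy mice. Fitm1 was higher in 5 of 6, a count that 15.2% of genes reached or passed, and at 33/47/20 it was 7.99 and 9.28 in high energy mice against 6.29 and 6.60 in medium energy mice. Pnpla2 was lower at high energy in 6 of 6, with differences of -1.13 to -0.075, as for 3.26% of genes, although its difference in the model was -0.11 ± 0.17 (adjusted p = 0.923). Cidec was higher at high energy in 1 of 6 and lower in 5, as 14.7% of genes were in 5 or more, and Pparg was higher in 4 of 6, with model differences of 0.23 ± 0.34 and -0.068 ± 0.21. A contrast of these matched diets called 1899 genes, G0s2 (0.85, adjusted p = 0.0304) and Fitm1 (1.33, adjusted p = 0.00781) among them. Over the same pairs the mean difference was -0.57 for Pnpla2 and -0.64 for Plin4, whose tests in this contrast are not given here. The contrast is thus not shown to be particular to G0s2 and Fitm1. Without the pair that holds the single medium energy 14/29/57 mouse the contrast called 2 genes. The differences were then 0.64 for G0s2 (adjusted p = 0.272) and 1.03 for Fitm1 (adjusted p = 0.196). Several markers of other cells had differences below 0 for the same comparison, with 0 called by limma. All 9 macrophage markers were below 0 (median -0.45, 3 at an unadjusted p of 0.05), as were 7 of 8 stellate (median -0.15, 1 unadjusted) and 4 of 4 cholangiocyte markers (median -0.27, 2 unadjusted), against a median of 0.0065 and 8.13% unadjusted for all genes. Endothelial markers were split, with 4 of 8 below 0 (median -0.063, 1 unadjusted), and 5 of 8 without the 14/29/57 mouse (median -0.024). Without the 14/29/57 mouse 7 of 9 macrophage markers were below 0 (median -0.17, 0 unadjusted), and 7 of 8 stellate (median -0.16) and 4 of 4 cholangiocyte markers (median -0.30) again. Their part in the differences of G0s2 and Fitm1 was not tested.

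**Figure D4:**
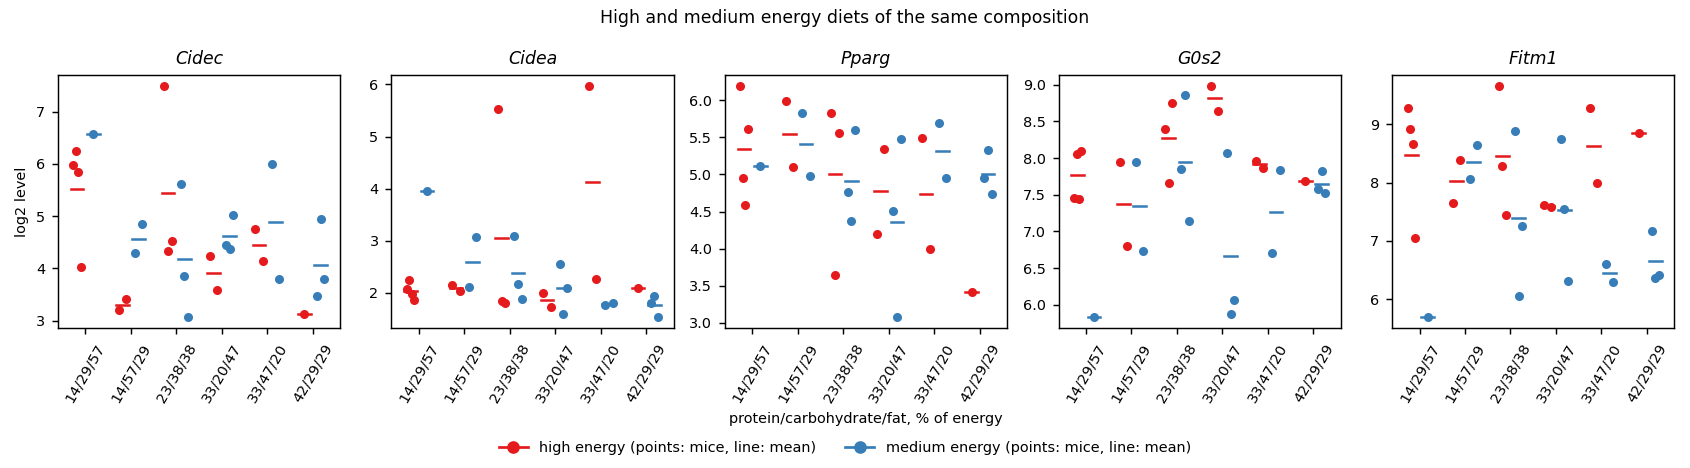
Log2 level (y axes) of Cidec, Cidea, Pparg, G0s2 and Fitm1 in the 6 compositions fed at both energy levels (x axes), with high energy mice (red, left) and medium energy mice (blue, right) as points and their means as lines. For G0s2 the red mean is above the blue in 6 of 6 compositions, and for Cidec in 1 of 6.

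Sex could not be taken from the labels. Y-linked genes exceeded Xist on 24 of the 48 arrays, which were 2 of 5 at low, 6 of 14 at medium and 16 of 29 at high energy. With the Y-linked minus Xist value as a term, 5.66% of all genes passed for that term, and so did Fitm1 (0.090 ± 0.020 per log2 unit, limma adjusted p = 0.00222), Plin2 (-0.028, adjusted p = 0.0236) and Plin4 (-0.090, adjusted p = 0.0306). Fitm1 thus stood higher in arrays with high Y-linked values, and the Plin2 and Plin4 levels lower. In the model with this term the energy differences were 1.02 for G0s2 and 1.03 for Fitm1 (adjusted p = 0.0901 and 0.0924), and the protein slopes of Cidec and Pparg were -0.43 and -0.27 (adjusted p = 0.00284 and 0.00264).

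Low energy was set against high energy at 60/20/20, with 3 mice each. No gene passed (limma, 0 of 16926, 0%; 1710 genes, 10.1%, at an unadjusted p of 0.05). Pnpla2 was 7.34, 7.49 and 7.56 in low energy mice, against 7.59, 8.44 and 8.49 in high energy mice, with no overlap and a difference of -0.71 ± 0.35 (limma adjusted p = 0.497). Such a split of 3 against 3 mice was not set beside its share among all genes and carries no test of its own. G0s2 was 6.62, 7.95 and 8.51 in low energy mice, against 7.67, 8.17 and 8.94 in high energy mice (-0.57 ± 0.52, adjusted p = 0.719), and the groups overlapped. Fitm1 was 6.61, 7.60 and 7.73, against 6.38, 8.32 and 8.66 (-0.47 ± 0.67, adjusted p = 0.826). Cidec differed by -0.36 ± 0.72 and Pparg by 0.44 ± 0.54, both within the spread.

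The steatosis genes Cidec, Cidea and Pparg were then set against G0s2 and Fitm1 in the same mice, as the difference of both log2 levels in each mouse. In all 6 pairs were compared in 3 contrasts, and the 95% intervals are not adjusted for their number. For protein, Cidec minus G0s2 had a slope of -0.42 per 10 points (-0.66 to -0.19), Cidec minus Fitm1 -0.28 (-0.52 to -0.038) and Pparg minus G0s2 -0.31 (-0.48 to -0.13). Pparg minus Fitm1 (-0.16, -0.38 to 0.066), Cidea minus G0s2 (-0.057, -0.29 to 0.17) and Cidea minus Fitm1 (0.089, -0.11 to 0.29) had intervals that held 0. For high against medium energy, 5 of the 6 intervals lay below 0, among them Pparg minus G0s2 (-1.03, -1.66 to -0.41) and Cidea minus Fitm1 (-1.09, -1.78 to -0.40), and that of Cidec minus G0s2 ran from -1.56 to 0.078. Cidec (0.23), Cidea (0.028) and Pparg (-0.068) alone had energy differences smaller than their SE. These energy intervals thus largely restate the differences of G0s2 and Fitm1, which did not pass in the limma fit. Without the medium energy 14/29/57 mouse 3 of the 6 lay below 0: Pparg minus G0s2 (-0.96, -1.60 to -0.32), Pparg minus Fitm1 (-1.07, -1.88 to -0.27) and Cidea minus Fitm1 (-0.80, -1.42 to -0.19). Those of Cidec minus Fitm1 (-0.63, -1.44 to 0.18) and Cidea minus G0s2 (-0.69, -1.46 to 0.085) then held 0. For fat in place of carbohydrate only Pparg minus G0s2 (0.20, 0.0086 to 0.40) left out 0, and without that mouse none did (0.19, -0.011 to 0.39). Without it the 3 protein intervals below 0 remained so, with Cidec minus Fitm1 reaching -0.0013. The slopes of Cidec and Pparg against protein were thus both more negative than that of G0s2 in this model. The pair differences were not fitted with the interquartile range as a term or without the 5% protein mice. Neither Cidec nor Pparg passed for protein under those 2 settings.

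Correlations between the genes were taken over the 48 mice. Of 36 correlations among the 9 genes the strongest was that of Plin2 with G0s2 (Pearson r = 0.68, Spearman rho = 0.71, permutation p = 1e-05 for both, the smallest that 100000 permutations give, adjusted p = 0.00018). It was 0.71 without the 2 mice farthest from the median of Plin2 and 0.68 after the diet terms were removed. Plin4 went with Plin5 (r = 0.62, rho = 0.61, permutation p = 2e-05 for both, adjusted p = 0.00024 and 0.00018) and with Pnpla2 (r = 0.60, rho = 0.64, permutation p = 1e-05 and 2e-05, adjusted p = 0.00018 for both). Cidec went with Pnpla2 (r = 0.55, rho = 0.57, permutation p = 3e-05 and 2e-05, adjusted p = 0.00027 and 0.00018). Without the 2 farthest mice these 3 values of r were 0.59, 0.63 and 0.59, and after the diet terms were removed 0.68, 0.56 and 0.51. With the Y-linked minus Xist value and the interquartile range removed as well they were 0.73, 0.51 and 0.38. Plin2 with G0s2 then had 0.69. In the 34 mice whose label number is under 300 and the 14 over it, r was 0.62 and 0.65 for Plin2 with G0s2, 0.62 and 0.59 for Plin4 with Plin5, 0.56 and 0.76 for Plin4 with Pnpla2, 0.54 and 0.60 for Cidec with Pnpla2, and 0.47 and 0.46 for Cidec with Pparg. Cidec and Pparg, which both fell with protein, had r = 0.46 and rho = 0.43 (permutation p = 0.00108 and 0.00292, adjusted p = 0.00648 and 0.0131), 0.40 without the 2 farthest mice, and 0.18 after the diet terms were removed. G0s2 and the lipase it inhibits had r = -0.11 and rho = -0.047 (permutation p = 0.478 and 0.751, adjusted p = 0.662 and 0.828). Cidea ran against Plin5 (r = -0.49, rho = -0.48, permutation p = 0.00022 and 0.00062, adjusted p = 0.00158 and 0.00446, r = -0.44 without 2 mice), with r = -0.52 in the mice numbered under 300 and 0.040 in those over it.

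**Figure D5:**
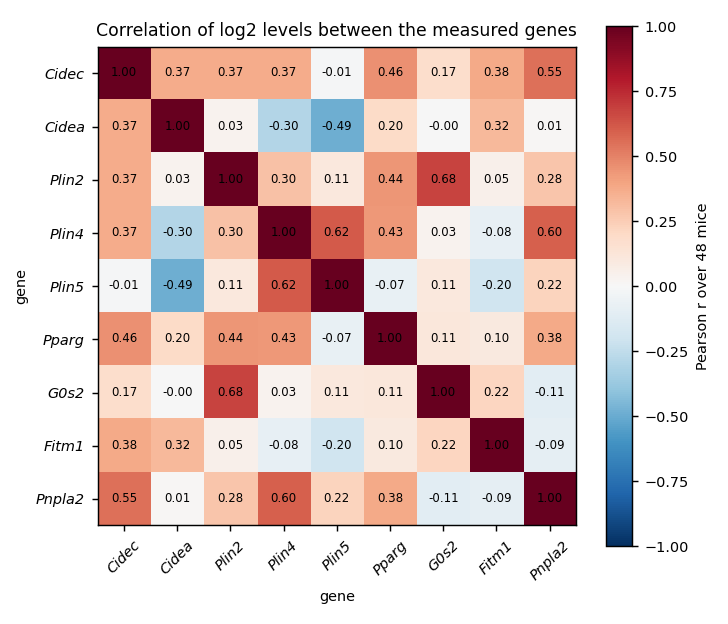
Pearson correlation of log2 levels over 48 mice between each pair of the 9 measured genes (both axes), on a colour scale from -1 (blue) to 1 (red). Plin2 with G0s2 (0.68) and Plin4 with Plin5 (0.62) are the strongest pairs, and Cidea with Plin5 (-0.49) the most negative.

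Among all other tested genes, those most like Cidec over the 48 mice were Cgref1 (r = 0.77), Plekha1 (0.75) and the mitochondrial folate enzyme Mthfd2 (0.69). For Pparg they were the integrin Itgb5 (0.85), Nfe2l2 (0.83), the transcription factor NRF2, and the protein kinase Prkca (0.82). For G0s2 they were Inhbe (0.69), which encodes the activin E subunit, Plin2 (0.68) and the small GTPase Rab30 (0.67). For Fitm1 they were the retinaldehyde dehydrogenase Aldh1a1 (0.81), the fatty acid elongase Elovl3 (0.80) and the steroid dehydrogenase Hsd3b2 (0.76). Cidea had lower values, with Osbpl3 (0.62), Cav1 (0.60) and Depp1 (0.59), and without its 2 farthest mice that with Cav1 was 0.082. The correlations with these most similar genes were not taken again with diet or array terms removed.

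Related genes were described from lists chosen, like the members, with earlier results of these data known, and their counts stand beside 3.65% of all genes called downward, 3.37% upward and 26.6% at an unadjusted p of 0.05. Of 12 other droplet proteins 0 passed for protein (limma; 4 at an unadjusted p of 0.05), with a median slope of 0.015, and Fitm2, the widely expressed FIT protein, had -0.13 ± 0.050 (adjusted p = 0.0959). Of 8 triglyceride breakdown genes 0 passed (2 unadjusted), and the deacetylase Aadac had 0.14 ± 0.046 (adjusted p = 0.0569). Of 13 triglyceride synthesis genes 1 rose, the acyltransferase Gpat4 (0.14 ± 0.039, adjusted p = 0.0248), and 0 fell. Of 6 measured PPAR gamma targets 0 passed (1 unadjusted), and lipoprotein lipase, Lpl, had -0.31 ± 0.11 (adjusted p = 0.0796). Of 10 measured PPAR alpha targets, genes of fasting and fat oxidation, 3 fell: the hormone Fgf21 (-0.57 ± 0.12, adjusted p = 0.00252), the thioesterase Acot2 (-0.34 ± 0.099, adjusted p = 0.0291) and the kinase Pdk4 (-0.32 ± 0.10, adjusted p = 0.0434). With the interquartile range as a term these 4 calls were lost, at 0.12 for Gpat4 (adjusted p = 0.248), -0.42 for Fgf21 (0.0774), -0.17 for Acot2 (0.528) and -0.12 for Pdk4 (0.681). Over 16 alternatives the call was lost in 5 for Gpat4, 3 for Fgf21, 6 for Acot2 and 9 for Pdk4, and gained in 3 for Fitm2, 4 for Aadac and 2 for Lpl. In the 48 fits that left out 1 mouse it was lost in 20 for Pdk4 and 4 for Acot2, and gained in 6 for Aadac, 3 for Fitm2 and 2 for Lpl. Without the macrophage-rich mouse Fitm2 (-0.16, adjusted p = 0.0201), the acyltransferase Gpam (-0.12, 0.0481) and the pantetheinase Vnn1 (-0.28, 0.0266) fell, Aadac rose (0.099, 0.0434), and Pdk4 had -0.31 (0.0534). Gpam and Vnn1 were named after their values were seen. For high against medium energy all 10 PPAR alpha targets had differences above 0 (median 0.21 against 0.0065 for all genes; 9 of 10 and a median of 0.15 without the macrophage-rich mouse), with 0 passing in limma and 2 at an unadjusted p of 0.05.

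Markers of other liver cells were set beside these falls. The 8 stellate cell markers all had negative protein slopes, and 2 fell, Col1a1 (-0.32 ± 0.091, limma adjusted p = 0.0278) and Col1a2 (-0.17 ± 0.056, adjusted p = 0.0479), while 3.65% of all genes fell. Without the macrophage-rich mouse 3 fell, Col1a1 (-0.31), Col3a1 (-0.23) and Reln (-0.12, limma adjusted p = 0.0339, 0.0423 and 0.0234), of which the last 2 were named after their values were seen. Their mean level over the list was 5.70 to 7.26 in the mice on 5% protein and 5.05 to 5.86 in those on 60%. The 9 macrophage markers also all had negative slopes, with 0 called (2 at an unadjusted p of 0.05, as for 26.6% of all genes), and list means of 5.48 to 7.42 at 5% and 5.70 to 6.81 at 60%. Of 8 endothelial and 4 cholangiocyte markers 0 passed (3 and 0 unadjusted), and 0 of the tested hepatocyte, adipocyte and muscle markers (0, 2 and 1 unadjusted). The part of these markers in the falls of Cidec and Pparg was not tested. In the macrophage-rich mouse on medium energy 14/29/57 G0s2 (5.84), Fitm1 (5.70) and Plin5 (6.92) were the lowest of 48 mice and Pnpla2 (8.97) the highest. This mouse also had the lowest hepatocyte marker mean (10.01), and the part of either marker list in these levels was not tested. Without this mouse the energy differences were 0.86 for G0s2 and 0.97 for Fitm1 (limma adjusted p = 0.624 and 0.649), and the protein slopes were -0.39 for Cidec and -0.30 for Pparg (adjusted p = 0.0108 and 0.00261).

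Other probe sets of the same genes gave a check of the measurement. A second probe set of G0s2 correlated with the one used at r = 0.91 over the 48 mice and differed by 0.82 ± 0.22 between high and medium energy. A second probe set of Fitm1 did so less closely (r = 0.60), with a difference of 0.35 ± 0.12 and a protein slope of 0.052 ± 0.034, against -0.13 for the probe set used.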

How the data were processed

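The authors deposited 1 table with a value for each of 41345 probe sets in 48 arrays. Its unit is not stated; the deposited values, -0.51 to 13.42, were read as log2 expression and used as they are. Background correction, normalization, software and the genome build behind the probe sets are not given in the sources used here. RNA came from a Qiagen AllPrep kit and was labelled with biotin, per the labels' protocols. The platform annotation gave 23521 probe sets with 1 symbol, 1814 with several and none for 16010. A gene was its single-symbol probe set of highest mean (22180 genes), and genes whose mean exceeded 1.17, the 30% quantile of probe set means, were tested (16926).

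Models were fitted with limma 3.58.1 (lmFit, eBayes with trend) in R 4.3.3 to all mice: protein share, fat for carbohydrate exchange and energy level. Low and high energy at 60/20/20 were compared with 1 mean per combination. Tests were two-sided, adjusted by Benjamini-Hochberg over all genes tested. Pair differences came from the same model by least squares. Arrays give no counts, so their number limits the precision. The code was tested on simulated data. The members, gene lists, tests and named genes (the members, the leading genes of each list and the 3 genes most like 5 of the members) were chosen with earlier results of these data known. Alternatives changed the filter, probe set rule, normalization, array weights, model terms and mice included.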

Additional observations from a re-analysis of the deposited data

Results flagged for a closer look

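Of 81 groups of 4 to 10 mice (9 genes by protein share and by diet combination), 3 held a mouse whose gap to the nearest mouse was wide for the range of its group, where chance gives about 1 in 20 groups. A count of 3 is thus no more than chance gives, and groups by protein share and by diet combination hold some of the same mice. Cidea was 5.97 in a high energy 33/47/20 mouse, the highest of 9 mice on 33% protein, with the next at 2.56. Cidea was 5.53 in a high energy 23/38/38 mouse, the highest of 9 on 23% protein, with the next at 3.08. Plin4 was 6.13 in a high energy 14/29/57 mouse, the highest of 9 on 14% protein, with the next at 4.30.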

How the results depend on the processing

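No paired analysis was possible because the replicate numbers were given in accession order only. The alternatives with 2 array terms together, and the matched contrast without the pair of the medium energy 14/29/57 mouse, and the gene differences and list counts without that mouse, were added after seeing the data. Where a cause is not named below, the cause was not tested. The protein slope called 1187 genes, and 4301 with array weights, 113 with the interquartile range as a term, 133 with that range and the Y-linked minus Xist value as terms, 630 with the diet combination as a random block, 14 without the 5% protein mice, 263 for protein in place of carbohydrate, 719 in place of fat and 3652 on the log2 of the protein share. Leaving out 1 mouse gave 588 (a high energy 42/29/29 mouse) to 3004 (the second high energy 60/20/20 mouse) calls. Cidec lost its call with the interquartile range (-0.34, limma adjusted p = 0.125), with both array terms (-0.31, 0.0892), without the 5% mice (-0.23, 0.747) and for carbohydrate alone (-0.37, 0.0566). Pparg lost it with the range (-0.17, 0.126), both terms (-0.18, 0.0953) and without the 5% mice (-0.26, 0.335). Calls gained by Plin4 and Pnpla2 stand with their slopes above. Cidec and Pparg passed in all 48 fits without 1 mouse (-0.46 to -0.38 and -0.32 to -0.27). The fat comparison called 0 genes, 2 with array weights, 1 at high energy alone and 1568 in the matched contrast (0 without the pair of the medium energy 14/29/57 mouse). High against medium energy called 0, 2 with the Y-linked term, 4 with both terms, 1899 in the matched contrast and 2 without that pair, and 0 to 3 without 1 mouse. There G0s2 (0.85) and Fitm1 (1.33) passed in the matched contrast, and the test of Pnpla2 (-0.57) in it is not given here. Low against high energy called 0 to 5 and the interaction 0 to 0 without 1 mouse.

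These values changed sign, and none of them passed the threshold in either fit. Plin5 against protein was 0.0070 with the range, 0.010 with the Y-linked term, 0.0064 with mouse number over 300, 0.00048 as a random block, 0.053 without the 5% mice and 0.035 for fat. G0s2 against protein was -0.0027 with mouse number, -0.0053 without the medium energy 14/29/57 mouse, -0.021 at high energy alone, -0.059 for carbohydrate and -0.024 on the log2 share. Cidea against protein was 0.016 with array weights and 0.014 at high energy alone, and Pnpla2 0.00077 with the range and 0.0088 with both terms. For fat, Cidea was -0.0073 with mouse number, -0.014 without the medium energy 14/29/57 mouse, -0.012 at high energy alone, -0.016 without the 5% mice, and -0.075 and -0.44 in the matched contrasts with and without that pair. For fat, Pparg was -0.070 without the 5% mice and -0.062 and -0.0046 in the matched contrasts, and Fitm1 -0.0065 with the mean of probe sets, -0.026 without the 5% mice and -0.35 in the matched contrast. For energy, Cidea was -0.033 with the Y-linked term, -0.014 with mouse number and -0.027 with both terms, and Cidec -0.52 and -0.42 in the matched contrasts. Leaving out 1 mouse gave Plin5 -0.027 to 0.014 and G0s2 -0.014 to 0.042 against protein, Cidea -0.014 to 0.068 and Fitm1 -0.025 to 0.034 for fat, and Cidea -0.13 to 0.17 and Pparg -0.20 to 0.0061 for energy.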
